A study of Mus musculus with 9 samples.

Results

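All 6 colon libraries of the series were set against its 3 small intestine libraries, so that the regional difference could be described without using the sort label of a colon library. The 6 colon libraries were 3 labelled GFP-high and 3 labelled GFP-negative, and with small intestine they made up all 9 libraries. A gene was taken as part of the regional programme where its lowest colon level lay above its highest small intestine level, or the reverse. Such genes are called separate below, and 3708 of the 20610 genes tested were separate (18% of genes tested, in either direction).

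All animals were Lgr5-2A-eGFP mice, 8 weeks old, and all libraries were made from their gut epithelium. This is a reporter line in which GFP marks cells that transcribe Lgr5. Colon and small intestine animals carried the same allele, and no treatment is named. Cells were dissociated with TrypLE and sorted by flow cytometry (30000 cells or more of each colon fraction, 50000 or more from small intestine), and polyadenylated RNA was sequenced. The labels give no GFP fraction for the small intestine libraries, no stretch of small intestine and no epithelial surface marker in the sort. They also do not say whether libraries came from separate animals. Name tags in the labels are shared by GFP-high 1, GFP-negative 1 and small intestine 2, by GFP-high 2 and GFP-negative 2, and by GFP-high 3 and small intestine 3. What a tag stands for is not given, so the 6 colon libraries may not be 6 independent samples and the p-values rest on the spread among these 9 libraries, part of which may be technical.

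The epithelium changes its work along the gut. Small intestine carries villi lined by enterocytes that digest and absorb food, and its crypts hold Paneth cells, which secrete lysozyme and defensins beside the stem cells. Colon has no villi and normally no Paneth cells, is rich in mucus-secreting goblet cells, recovers salt and water, and lies next to a dense microbiota. Positional identity is carried by transcription factors, among them the Hox genes, whose 5′ members mark the posterior body, and Gata4, which marks the proximal small intestine.

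Libraries held 86621513 to 106673547 counts, and 3 counts corresponded to 0.0233 to 0.0412 CPM on TMM-scaled library sizes, the unit of all levels below. On the first principal component, with 41.4% of the variance, the small intestine libraries lay at 118 to 166 and the colon libraries at -202 to -1.09. Lgr5 itself, the stem cell receptor behind the reporter, stood at 43.9, 0.954 and 72.6 CPM in the libraries labelled GFP-high 1 to 3, at 2.83, 61.6 and 6.37 in those labelled GFP-negative 1 to 3 and at 58.1, 119.5 and 209 in small intestine. In the colon replicate 2 pair it was therefore high in the library labelled GFP-negative and near absent in the library labelled GFP-high. Joining both colon fractions keeps this conflict out of the grouping, but not out of the spread between colon libraries. All small intestine libraries were high in Lgr5, at 58.1 CPM or more, while some colon libraries were low in it. Region and sorted fraction therefore cannot be fully told apart in the comparisons below. Leukocyte genes summed to 4.70, 711 and 22.2 CPM in the GFP-high and 673, 4.48 and 3921 CPM in the GFP-negative libraries, against 96.1, 16.1 and 47.5 CPM in small intestine. Epcam, which marks epithelial cells, was at 3060.0 to 5599.6 CPM in colon and 3107 to 6224 CPM in small intestine. Stromal and muscle genes summed to 4.27 to 60.6 CPM in colon, highest in GFP-negative 3, and 2.41 to 8.19 CPM in small intestine, with their defining marker Col1a1 at 0.192 CPM or less. Endothelial genes summed to 4.50 to 14.9 CPM and 16.9 to 26.5 CPM, and neural and glial genes to 0.530 to 2.06 CPM and 0.624 to 1.93 CPM, with Cdh5 and Sox10 at 0 in every library.

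The test (edgeR's quasi-likelihood test, Benjamini-Hochberg adjusted p under 0.05) called 1291 genes higher in colon (6.26% of genes tested) and 964 lower (4.68% of genes tested). By range alone, 1952 genes were separate and higher in colon (9.47%) and 1756 separate and lower (8.52%). Both conditions held for 1226 genes higher in colon (5.95%) and 841 lower (4.08%). The test runs on the same contrast as the ranges and is no independent support of them: it shows which separate genes stand out from the spread within each tissue. Of the genes called, 65 higher and 123 lower overlapped in range, and 726 higher and 915 lower genes were separate without being called. Fewer genes were called higher without small intestine replicate 3 (797), and fewer were called lower without colon GFP-high replicate 2 (611), colon GFP-negative replicate 1 (577), small intestine replicate 1 (584) or small intestine replicate 3 (476). Without small intestine replicate 1, the count of separate lower genes rose to 3284.

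The 1226 genes higher in colon took 10.6% to 20.2% of counts in the colon libraries and 2.37% to 2.71% in small intestine. The 841 lower genes took 2.35% to 3.42% of counts in colon and 11.9% to 16.9% in small intestine. The gap between the nearest libraries of the 2 tissues was at least 10-fold for 202 higher and 113 lower genes, and at least 100-fold for 28 and 31, with a level of 0 set to 3 counts. Levels above 0 but under 3 counts were kept as measured. The median gap was 2.59-fold among the higher and 1.48-fold among the lower genes. Long noncoding RNAs made up 19.1% of the higher and 9.63% of the lower genes, against 21.7% of all genes tested.

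**Figure D1:**
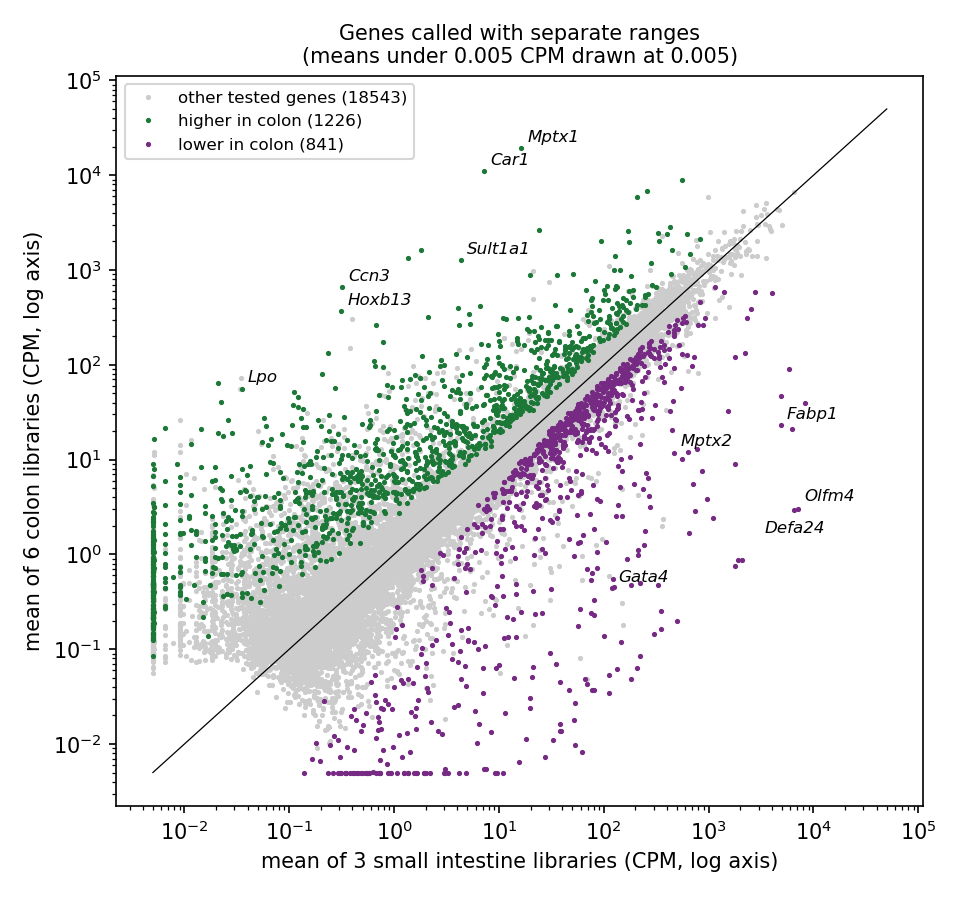
Mean level of each tested gene in 6 colon libraries (vertical, CPM, log axis) against 3 small intestine libraries (horizontal, CPM, log axis). Green points are the 1226 genes called higher in colon with separate ranges, purple points the 841 called lower, grey points all other tested genes, and the line marks equal means; Mptx1 and Car1 lie at the top and the defensin Defa24 and Olfm4 at the lower right.

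The widest gaps on the colon side belonged to Ccn3, Lpo, Best2, Hoxb13 and Nxpe4. Ccn3, a secreted matricellular protein, stood at 488, 793 and 250.5 CPM in the GFP-high and at 1108, 581 and 724 CPM in the GFP-negative colon libraries, and at 0.302, 0.292 and 0.357 CPM in small intestine (log2 fold change 11.01 ± 0.67 (SE), adjusted p = 1.9e-05). The lowest colon library was 702 times the highest small intestine library. Lpo, which encodes lactoperoxidase, a secreted peroxidase of mucosal surfaces, stood at 50.6, 82.4 and 51.9 CPM in GFP-high and at 60.7, 35.3 and 55.9 CPM in GFP-negative, against 0.055, 0.0195 and 0.031 CPM (log2 fold change 10.65 ± 0.50 (SE), adjusted p = 5.1e-06). Its colon levels differed by less than 3-fold among themselves, across both sort labels. Best2, a bestrophin anion channel known in colonic goblet cells, was at 15.9 to 160.4 CPM in colon and 0.0155 to 0.0275 CPM in small intestine (log2 fold change 11.56 ± 1.34 (SE), adjusted p = 0.00071, with limma-voom adjusted p = 0.12). Nxpe4, a member of the neurexophilin and PC-esterase domain family, was at 21.3 to 56 CPM against 0 to 0.039 CPM (log2 fold change 10.86 ± 0.79 (SE), adjusted p = 5.1e-05). The remaining 5 of the 10 widest gaps were Hoxa13, the noncoding Hoxa11os, the GTPase-activating protein Arhgap20, the galactosyltransferase B3galt2 and Ephx4, an epoxide hydrolase family member. Summed over the small intestine libraries, Lpo and Ephx4 had 10 counts each, and Best2, Nxpe4 and Hoxa13 had 6 each. Hoxa11os had 4, Arhgap20 3 and B3galt2 2, so the gaps of these genes rest on few reads. Hoxa11os lies antisense to Hoxa11, and the strand setting of the counting is not given, so the pair cannot be told apart with certainty.

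On the small intestine side, 8 of the 10 widest gaps were alpha-defensins of Paneth cells, and the others were Olfm4 and Cyp2e1. Olfm4, a secreted glycoprotein used as a marker of small intestine crypt base cells, was at 4923, 8836 and 7407 CPM in small intestine. In colon it stood at 2.61, 2.93 and 2.28 CPM in GFP-high and at 5.13, 2.2 and 2.74 CPM in GFP-negative libraries (log2 fold change -11.21 ± 0.42 (SE), adjusted p = 3.4e-06). No colon library, whatever its Lgr5 level, came near the lowest small intestine library, which was 959.7 times the highest colon library. Cyp2e1, a cytochrome P450 that oxidises ethanol, was at 35.4 to 82.9 CPM in small intestine and at no more than 0.0386 CPM in colon.

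The 2 genes named in the title of the series differed in how they followed the regional boundary. Npy1r, which encodes a neuropeptide Y receptor, stood at 10.4, 19.7 and 17.9 CPM in GFP-high, at 13.2, 16.8 and 5.2 CPM in GFP-negative and at 0.192, 0.117 and 0 CPM in small intestine, and was separate and called (log2 fold change 7.11 ± 1.11 (SE), adjusted p = 0.0034). With the name tag as a replicate block in the edgeR fit, the Npy1r call was lost (adjusted p = 0.067). Nox1, a superoxide-generating NADPH oxidase, stood at 50.5, 16.9 and 74 CPM in GFP-high, at 34.1, 116 and 9.96 CPM in GFP-negative and at 5.84, 14.6 and 7.83 CPM in small intestine. Its lowest colon library lay below the highest small intestine library, and the difference over all colon libraries was not called (adjusted p = 0.076), although DESeq2 called it (adjusted p = 0.0017) and edgeR did without colon GFP-negative replicate 3 (adjusted p = 0.025).

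**Figure D2:**
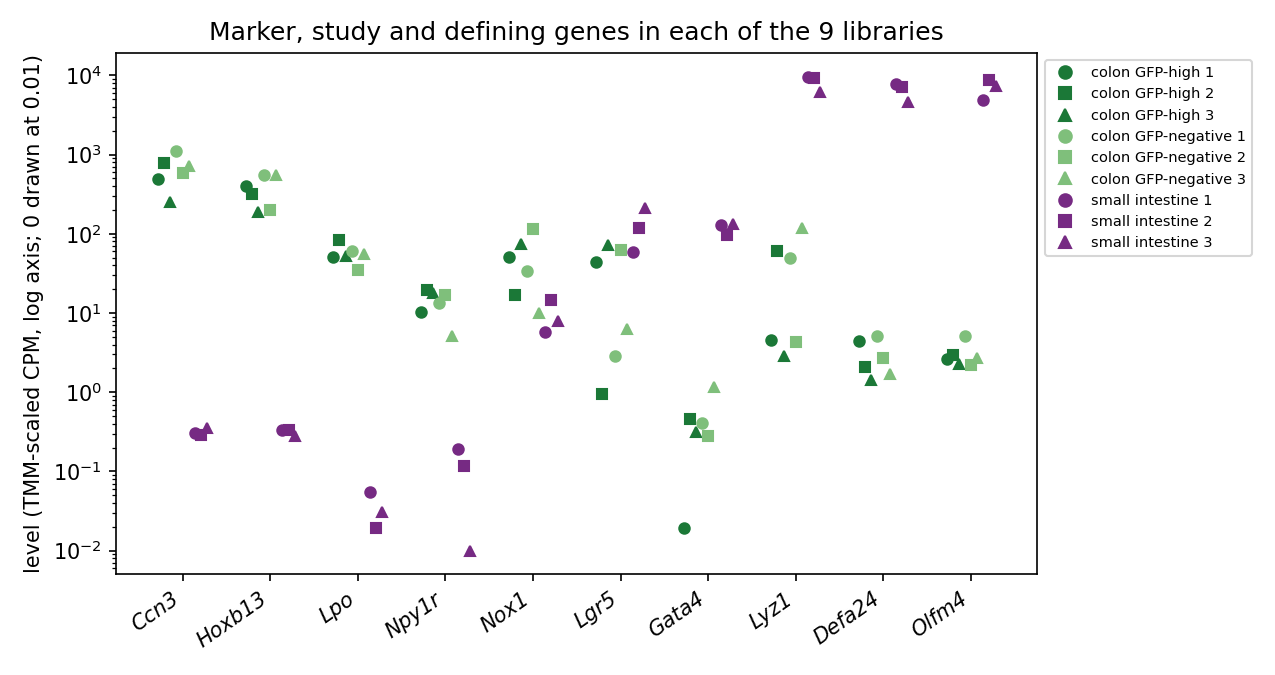
Level of 10 genes in each of the 9 libraries (vertical, TMM-scaled CPM, log axis, a level of 0 drawn at 0.01). Colour gives the group and symbol the replicate; Ccn3, Hoxb13, Lpo and Npy1r lie higher in all colon libraries, Gata4, Lyz1, Defa24 and Olfm4 higher in all small intestine libraries, and Nox1 and Lgr5 overlap.

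Hox genes encode the homeodomain factors that give cells their position along the body axis. All 10 tested posterior members (paralog groups 9 to 13) were called higher in colon and separate, against 5.95% of all genes tested. Their median log2 fold change was 9.76 against 0.03 over all genes tested, and 6.25 when the 5 members with no count in small intestine were set to the bound that 3 counts allow. Another 6 posterior members were not tested, all at 0.62 CPM or less in each library. Hoxb13, the most posterior member of its cluster, stood at 399.9, 315 and 187 CPM in GFP-high and at 545, 199.6 and 556 CPM in GFP-negative against 0.33, 0.331 and 0.279 CPM (log2 fold change 10.19 ± 0.62 (SE), adjusted p = 1.9e-05). Hoxa13 was at 12 to 27.7 CPM in colon and 0.0155 to 0.0275 CPM in small intestine (log2 fold change 9.80 ± 0.55 (SE), adjusted p = 1.3e-05). Hoxd13, Hoxd12, Hoxa11, Hoxd11 and Hoxd10 had no count in the small intestine libraries, while Hoxd13 reached 3.61 to 12.8 CPM in colon. Hoxb9 was at 26.2 to 42.8 CPM in colon but at 1.04, 2.67 and 0.031 CPM in small intestine 1 to 3, and its call was lost without small intestine replicate 1 (adjusted p = 0.066). The Hoxb9 call was also lost with either colon fraction alone and without the colon replicate 2 pair (adjusted p up to 0.093). Of the 5 members with counts in small intestine, the nearest-library gap was 565-fold for Hoxb13 and 437-fold for Hoxa13, but 9.81-fold for Hoxb9 and 18.6-fold for Hoxa9. Over all small intestine libraries Hoxa13 had 6 counts and Hoxb13 94.

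Of 16 tested anterior and middle Hox genes (groups 1 to 8), 10 were called higher in colon, against 6.26% of all genes tested, and none lower. Their median log2 fold change was 3.85 (3.70 with the 1 member at 0 in small intestine set to its bound). Hoxa7 stood at 40.6 to 71.5 CPM in colon against 0.275 to 2.3 CPM (log2 fold change 5.64 ± 0.66 (SE), adjusted p = 0.00075), and Hoxb7 at 24.1 to 80 CPM against 1.24 to 8.74 CPM (log2 fold change 3.71 ± 0.74 (SE), adjusted p = 0.011). Hoxa4 at 0.12 to 3.4 CPM overlapped the small intestine range. Without the GFP-high libraries the count called was 4 of the 16, while 9 or 10 of the posterior genes stayed called in each alternative without a block on replicates.

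Other regional transcription factors divided between the tissues: of 19 tested, 3 were called higher in colon and 7 lower, against 6.26% and 4.68% of all genes tested. All 10 were separate. The forkhead factor Foxd2 was at 20.6 to 52.1 CPM against 0.0275 to 0.175 CPM (log2 fold change 8.16 ± 0.73 (SE), adjusted p = 0.0002). Tfcp2l1, a grainyhead-like family factor, was at 33 to 66.4 CPM against 3.32 to 6.57 CPM (log2 fold change 3.27 ± 0.35 (SE), adjusted p = 0.00049).

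The lower factors included 3 zinc finger GATA genes. Gata4 stood at 128, 95.9 and 134 CPM in small intestine, and at 0.0193, 0.455 and 0.315 CPM in GFP-high and at 0.413, 0.277 and 1.17 CPM in GFP-negative colon libraries (log2 fold change -8.08 ± 0.82 (SE), adjusted p = 0.0004). Gata5 was at 71.4 to 80.2 CPM against 0 to 1.92 CPM in colon (log2 fold change -6.90 ± 1.19 (SE), adjusted p = 0.0053). Gata6 differed less, at 80.2 to 107 CPM against 18.3 to 58.7 CPM (log2 fold change -1.21 ± 0.31 (SE), adjusted p = 0.033), and its call was lost without colon GFP-high replicate 2, GFP-negative replicate 1 or any of the small intestine libraries (adjusted p up to 0.14). Onecut2, a cut-homeodomain factor, was at 13.2 to 24.4 CPM against at most 0.108 CPM (log2 fold change -9.26 ± 1.08 (SE), adjusted p = 0.00074), and Pdx1, the pancreatic and duodenal homeobox factor, at 8.33 to 11.7 CPM against 0.0193 to 2.09 CPM (log2 fold change -3.67 ± 0.92 (SE), adjusted p = 0.032). The Pdx1 call was lost without GFP-high 3, GFP-negative 1 or 2 or any small intestine library (adjusted p up to 0.086), and the count of lower regional factors was 3 or 4 without GFP-high 2, GFP-negative 1 or 2, or small intestine 1 or 3. Of 14 factors that work along the whole intestine, 2 were called higher and 2 lower, against 6.26% and 4.68% of all genes tested. Cdx1, an intestinal homeobox factor, was at 988 to 1828 CPM in colon and 574 to 1172 CPM in small intestine, and Cdx2 at 41.8 to 235 and 89 to 125 CPM, both overlapping. Hnf4a, a nuclear receptor of the absorptive programme, was at 128 to 195 CPM in colon against 318 to 421 CPM (log2 fold change -1.22 ± 0.19 (SE), adjusted p = 0.0033). Foxa1, a forkhead pioneer factor, was at 78.6 to 115 CPM against 18.3 to 42 CPM (log2 fold change 1.51 ± 0.28 (SE), adjusted p = 0.0084).

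Paneth cell genes gave the most one-sided list on the small intestine side: 25 of 27 tested members were called lower in colon, against 4.68% of all genes tested. All 25 were separate, against 87.2% of all genes called lower, and the median log2 fold change of the list was -11.01. Defa24 was at 7830.2, 7104 and 4569 CPM in small intestine, at 4.45, 2.09 and 1.44 CPM in GFP-high and at 5.16, 2.73 and 1.7 CPM in GFP-negative (log2 fold change -11.12 ± 0.56 (SE), adjusted p = 7.5e-06). Lyz1, the Paneth lysozyme, was at 9626, 9287 and 6216 CPM in small intestine (log2 fold change -7.72 ± 1.22 (SE), adjusted p = 0.0036). In colon it stood at 4.61, 60.2 and 2.87 CPM in GFP-high and at 49, 4.25 and 117 CPM in GFP-negative, high in the 3 libraries with low Lgr5 and under 5 CPM in the other 3. The same 3 libraries had the highest leukocyte sums, and Lyz2, the macrophage lysozyme and a close copy with which Lyz1 may share reads, was at 0.0868, 133 and 0.713 CPM in GFP-high and at 472, 0.0792 and 548 CPM in GFP-negative. The part of either in the colon level of Lyz1 was not tested. In bulk samples fewer cells of a type and less RNA per cell cannot be told apart, here and for each cell type list below. The 2 members not called, Ang4 and the phospholipase Pla2g2a, overlapped: Ang4, an antimicrobial ribonuclease, ranged over 8.97 to 4783 CPM in colon and 392 to 639 CPM in small intestine. Near-identical defensin copies may share reads, and how multimapping reads were counted is not given, so the values of single defensins are uncertain.

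The low side of these genes was not 0. Among the 13 lower genes with a gap of at least 100-fold and a small intestine mean of at least 100 CPM, the colon mean was 0.0312% to 0.0710% of the small intestine mean, with a median of 0.0450%. They were 11 defensins, Olfm4 and the gastrokine Gkn3. Among the 6 higher genes chosen the same way, Anxa1, Ccn3, Hoxb13, Plet1, Sult1a1 and Sval1, the small intestine mean was 0.0482% to 0.448% of the colon mean.

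A pair of secreted pentraxins, Mptx1 and Mptx2, lay on opposite sides of the boundary. Mptx1, the mucosal pentraxin of the colon, was at 2223, 44240 and 2852 CPM in GFP-high and at 28430, 9219 and 28064 CPM in GFP-negative against 15.2, 11 and 22.5 CPM in small intestine (log2 fold change 10.20 ± 1.47 (SE), adjusted p = 0.0023). Mptx2, known from Paneth cells, was at 527, 409 and 464 CPM in small intestine and at 1.66, 28.3 and 1.98 and 13.9, 4.69 and 20.4 CPM in the GFP-high and GFP-negative colon libraries (log2 fold change -5.30 ± 0.85 (SE), adjusted p = 0.0037). Of 24 pairs of related genes compared, this pair and the C-type lectins Reg4 and Reg3g were separate in opposite directions. Both copies lie on chromosome 1 and may share reads. Their promoter windows are shown because they are alike in sequence while the levels were opposite (RefSeq, GRCm38.p6, 250 bases before to 50 after the annotated start). Capitals mark the only matches to the motifs searched, the GATA form AGATAA read as TTATCT in Mptx1 and the CDX and HOX13 form CAATAAA read as TTTATTG in Mptx2.
Mptx1: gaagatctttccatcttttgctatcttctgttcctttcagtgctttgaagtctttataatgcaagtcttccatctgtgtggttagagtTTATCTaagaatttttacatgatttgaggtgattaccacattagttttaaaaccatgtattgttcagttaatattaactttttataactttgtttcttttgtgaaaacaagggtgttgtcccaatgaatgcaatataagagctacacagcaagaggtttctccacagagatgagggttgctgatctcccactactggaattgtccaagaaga
Mptx2: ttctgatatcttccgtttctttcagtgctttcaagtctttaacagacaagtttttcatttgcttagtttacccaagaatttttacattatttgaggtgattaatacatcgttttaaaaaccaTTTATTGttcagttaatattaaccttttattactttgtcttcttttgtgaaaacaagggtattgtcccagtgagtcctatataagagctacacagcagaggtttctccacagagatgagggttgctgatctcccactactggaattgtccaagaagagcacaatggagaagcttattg
The windows are chr1:174330268-174330567 on the + strand for Mptx1 and chr1:173277707-173278006 on the - strand for Mptx2. Aligned to each other, 247 of 278 paired bases were identical (88.8%), with 8 gap columns. Counted from the first base of the Mptx2 window, the substitution T124G inside its CAATAAA match removes that match from Mptx1. A match is a stretch of letters and not a measured binding site.

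The same motifs were counted in the promoter windows of all separate and called genes. AGATAA stood on either strand in 7.79% of 1065 windows of genes higher in colon, in 9.59% of 772 windows of lower genes and in 7.38% of 15753 windows of all genes tested. The HNF4 form AAAGTCC stood in 4.23%, 5.83% and 4.13% of these windows, and CAATAAA in 2.63%, 2.33% and 2.82%. The CpG form TCGTAAA of CDX and HOX13 factors stood in 0.563%, 0.259% and 0.673%. Matches of different motifs may share bases at their ends, windows were found for 801 of 1225 higher and 606 of 841 lower gene symbols, and no test was made.

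Of 23 stem cell genes tested, 6 were called lower in colon, against 4.68% of all genes tested, 0 higher, and the median log2 fold change was -1.25. Olfm4 and Gkn3 led them, and Gkn3 stood at 75.6 to 145 CPM in small intestine and at most 0.13 CPM in colon (log2 fold change -10.97 ± 0.87 (SE), adjusted p = 9.8e-05). Rnf43, a ubiquitin ligase that removes Wnt receptors, was at 33.3 to 73.7 CPM against 8.01 to 29.7 CPM, and the receptor Tnfrsf19 at 11.5 to 34.3 CPM against 1.35 to 8.25 CPM, but both calls were lost without small intestine replicate 2 or 3 (adjusted p up to 0.19), as was that of Rnf43 without GFP-high 1 or 2 or GFP-negative 1 or 3. Without either of these small intestine libraries 3 of the 23 genes were called, and without the colon replicate 2 pair 2. Lgr5 was not called (log2 fold change -2.04 ± 1.09 (SE), adjusted p = 0.26) and its ranges overlapped. Smoc2, a matricellular protein of stem cells, ranged over 28.7 to 433 CPM in colon and 306 to 789 CPM in small intestine, with the 3 colon libraries that were high in Lgr5 at 305 CPM or more and the others at 54.6 or less. The whole list summed to 1629, 621 and 1970 CPM in GFP-high and to 664, 1965 and 533 CPM in GFP-negative, so it too followed Lgr5 within colon. In small intestine the list summed to 6383, 12202 and 10888 CPM, of which Olfm4 alone gave 4923, 8836 and 7406.5 CPM. The part of the sorted fraction in the difference from small intestine was not tested. Summed mitosis genes were at 1358 to 3607 CPM in colon and 2862 to 4978 CPM in small intestine, with no member called.

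Goblet cell and mucus genes were the counterpart in colon: 15 of 21 tested were called higher, against 6.26% of all genes tested, and all 15 were separate. The chloride channel regulator Clca4b was the 1 called lower, and the median log2 fold change was 2.86. The count called higher was 10 with the GFP-high libraries alone. It was 11 without small intestine replicate 3 and with the name tag as a replicate block. Muc2, the gel-forming mucin of the mucus layer, was at 2365, 1569 and 1016 CPM in GFP-high and at 3337, 1619 and 1864 CPM in GFP-negative against 370.4, 61.1 and 94 CPM (log2 fold change 3.49 ± 0.68 (SE), adjusted p = 0.01). Klk1, a tissue kallikrein, was at 3044 to 8257 CPM against 103 to 333 CPM (log2 fold change 4.85 ± 0.55 (SE), adjusted p = 0.00066), and Agr2, the disulfide isomerase that folds mucins, at 3604 to 12871 CPM against 178 to 1043 CPM (log2 fold change 4.0 ± 0.70 (SE), adjusted p = 0.0058). The factors that specify the lineage were higher too. Atoh1, the secretory lineage factor, stood at 119 to 354 CPM against 27.7 to 40.9 CPM (log2 fold change 2.86 ± 0.36 (SE), adjusted p = 0.0011), Spdef, which matures goblet cells, at 97.1 to 237 CPM against 14.7 to 20.1 CPM (log2 fold change 3.22 ± 0.34 (SE), adjusted p = 0.00045), and Creb3l1, a factor of the secretory pathway, at 167 to 262 CPM against 17.8 to 21.1 CPM (log2 fold change 3.55 ± 0.21 (SE), adjusted p = 1.9e-05). Not every goblet gene followed. Zg16, a lectin of the mucus, ranged over 44.6 to 16943 CPM in colon and 481 to 12004 CPM in small intestine, and Clca1 over 14.6 to 18036 and 145 to 2248 CPM. Tff3, the trefoil peptide, was at 163 to 2448 CPM and 210.0 to 1479 CPM.

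Genes of the deep crypt secretory cells, which sit beside colonic stem cells, were called higher for 7 of 12, against 6.26% of all genes tested, and lower for 1, the Notch ligand Dll1, with a median log2 fold change of 2.43. Reg4, a lectin used as their marker, was at 1046, 11966 and 802 CPM in GFP-high and at 5243, 17576 and 4737 CPM in GFP-negative against 356, 238 and 175 CPM (log2 fold change 4.75 ± 1.13 (SE), adjusted p = 0.025). Its call was lost without any of the small intestine libraries (adjusted p up to 0.11), and that of Dll1 without small intestine replicate 3 (adjusted p = 0.12). Kit, the receptor tyrosine kinase by which they are sorted, was at 32.6 to 45 CPM in colon, less than 1.5-fold from lowest to highest, against 6.15 to 16 CPM (log2 fold change 1.95 ± 0.30 (SE), adjusted p = 0.003). Retnlb, a secreted resistin-like protein of goblet cells, varied from 145 to 3020.2 CPM within colon, yet stayed at 0.935 to 1.69 CPM in small intestine (log2 fold change 9.94 ± 1.62 (SE), adjusted p = 0.004). The count called higher was 5 without any one of the small intestine libraries. It was 4 with the GFP-high libraries alone and with the name tag as a replicate block. The list overlaps that of the goblet cells in Agr2, Spink4 and Muc2.

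Mucin glycosyltransferases, which build the sugar chains of mucins, were called higher for 15 of 25, against 6.26% of all genes tested, and lower for 1. Their median log2 fold change was 1.73. The count called higher was 11 without small intestine replicate 3 and 5 with the name tag as a replicate block. B3galt5, a galactosyltransferase, was at 93.3, 93.5 and 71.1 CPM in GFP-high and at 159, 113 and 126 CPM in GFP-negative against 0.962, 0.429 and 0.528 CPM (log2 fold change 7.42 ± 0.46 (SE), adjusted p = 1.9e-05). St6galnac6, a sialyltransferase, was at 267 to 587 CPM against 3.06 to 13.3 CPM (log2 fold change 5.97 ± 0.64 (SE), adjusted p = 0.00049). Fut2, the fucosyltransferase of secretor status, was at 16.8 to 52.6 CPM against 0.663 to 2.89 CPM (log2 fold change 4.53 ± 0.69 (SE), adjusted p = 0.0029), and the core-forming enzymes C1galt1, B3gnt6 and Gcnt3 were higher as well. B4galnt1, a ganglioside enzyme, went the other way, at 103 to 151 CPM in colon and 303 to 362 CPM in small intestine (log2 fold change -1.42 ± 0.16 (SE), adjusted p = 0.00067). Among 13 tested claudins and membrane mucins, 3 were higher, against 6.26% of all genes tested: Cldn8, a sealing claudin, at 55.3 to 208 CPM against 3.16 to 7.62 CPM (log2 fold change 4.60 ± 0.59 (SE), adjusted p = 0.0012), and the membrane mucins Muc1 and Muc20. The Muc20 call was lost without GFP-high 1 or 2 or any small intestine library (adjusted p up to 0.14).

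**Figure D3:**
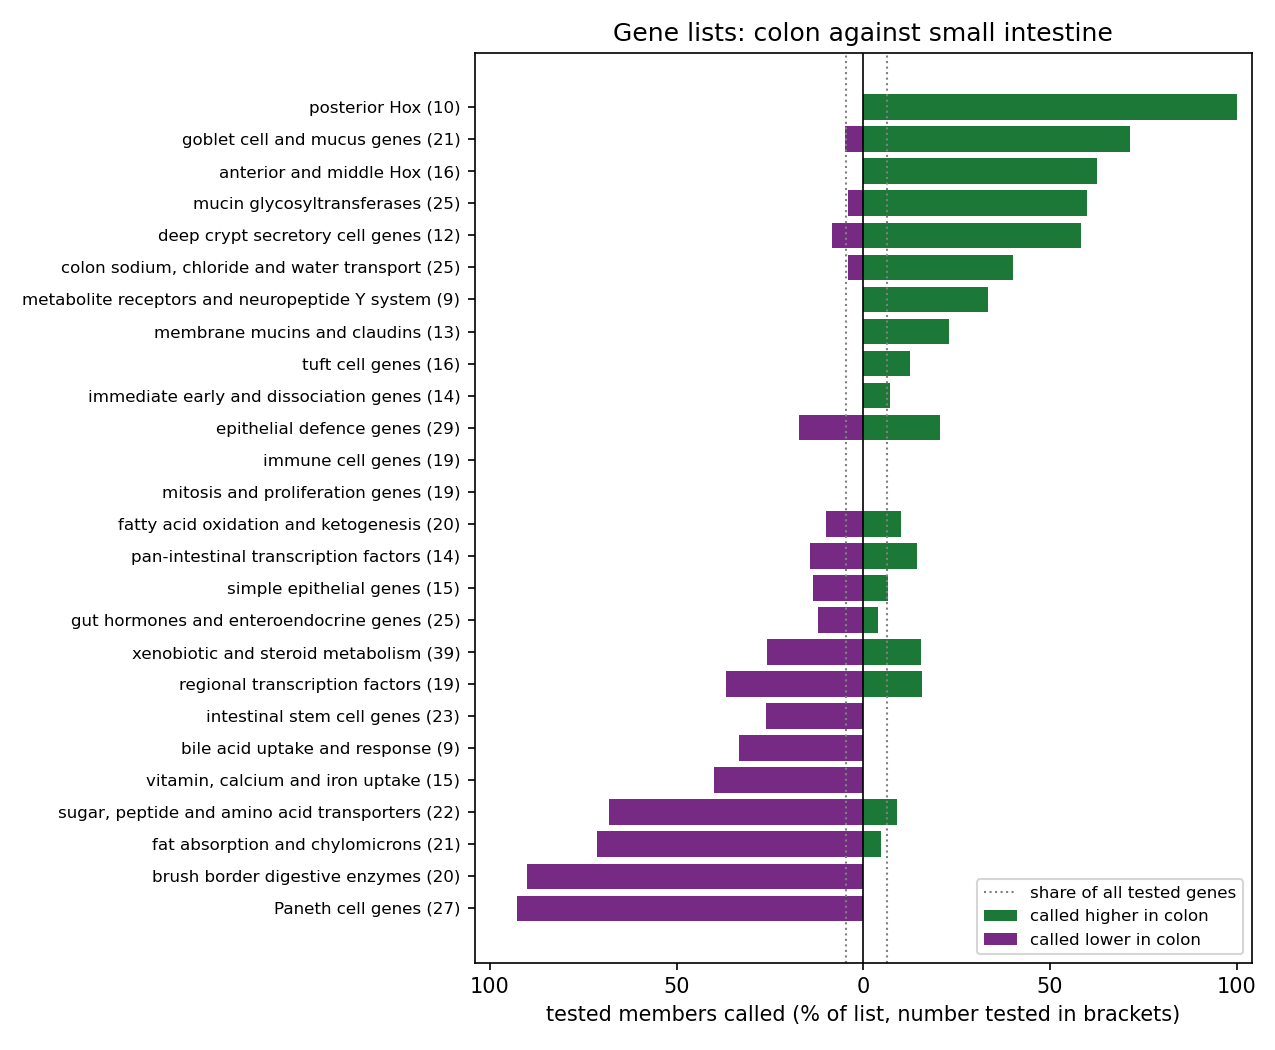
Share of the tested members of each gene list called higher in colon (green, to the right) or lower (purple, to the left), in percent, for lists with at least 9 tested members, the number tested in brackets. Dotted lines give the shares over all genes tested, 6.26% and 4.68%; posterior Hox genes lie wholly on the colon side and 25 of 27 Paneth cell genes on the small intestine side.

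Genes of colonic salt and water transport were called higher for 10 of 25, against 6.26% of all genes tested, and lower for 1. Their median log2 fold change was 1.33. Car1, a carbonic anhydrase that feeds sodium and chloride exchange, was at 471, 20978 and 6819.7 CPM in GFP-high and at 10032, 3015 and 25026 CPM in GFP-negative, a span of over 50-fold, but at 2.45, 2.96 and 16.2 CPM in small intestine (log2 fold change 10.58 ± 1.76 (SE), adjusted p = 0.0044). Hsd11b2, which protects the mineralocorticoid receptor from cortisol-type steroids, was at 105 to 583 CPM against 9.26 to 13.3 CPM (log2 fold change 4.71 ± 0.69 (SE), adjusted p = 0.0023). Of the subunits of the aldosterone-regulated sodium channel, Scnn1b was at 2.6 to 9.04 CPM against 0 to 0.055 CPM (log2 fold change 8.46 ± 1.26 (SE), adjusted p = 0.0027) and Scnn1a at 9.94 to 23.5 CPM against 3.54 to 7.3 CPM (log2 fold change 1.71 ± 0.37 (SE), adjusted p = 0.016). Scnn1g had counts in 3 colon libraries and was not called (adjusted p = 0.18). The exchangers Slc26a3, Slc9a3 and Slc9a2, the water channel Aqp8 and the chloride channel Cftr overlapped between the tissues. The 2 guanylins, peptides that stimulate fluid secretion, divided: Guca2a was at 1458 to 4514 CPM in colon against 104 to 784 CPM (log2 fold change 2.73 ± 0.68 (SE), adjusted p = 0.032), whereas Guca2b was called lower with overlapping ranges, 58 to 101 CPM against 83.4 to 947 CPM (log2 fold change -2.36 ± 0.55 (SE), adjusted p = 0.023). The call of Guca2a was lost without GFP-high 2, GFP-negative 1 or small intestine 2 or 3 (adjusted p up to 0.12), that of Guca2b without GFP-high 2, GFP-negative 1 or small intestine 1 (up to 0.13) and that of Scnn1a without small intestine 2 or 3 (up to 0.066). Without small intestine 2 or 3, 6 of the 25 genes were called higher.

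Most brush border, fat absorption and transporter genes tested were called lower in colon, and small intestine replicate 2 set the boundary for many of them. Of 20 tested brush border enzymes, 18 were called lower, against 4.68% of all genes tested. Of these 18, 12 were separate, a smaller share than the 87.2% over all genes called lower. Summed over the list, the level was 7634, 469.9 and 3213 CPM in small intestine 1 to 3 and 150.4 to 329 CPM in colon. Alpi, the intestinal alkaline phosphatase, was at 1857, 20.6 and 697 CPM in small intestine and 0.309 to 20.1 CPM in colon (log2 fold change -6.84 ± 1.32 (SE), adjusted p = 0.0098), separate by 1.02-fold, and the call was lost with either colon fraction alone and without the colon replicate 2 pair (adjusted p up to 0.093). Akp3, a second alkaline phosphatase gene, was at 321, 3.5 and 223 CPM against at most 0.13 CPM (log2 fold change -11.83 ± 1.40 (SE), adjusted p = 0.00077, with limma-voom 0.16). Of the peptidases, Enpep was at 506, 9.06 and 152 CPM against 0.135 to 1.02 CPM (log2 fold change -8.78 ± 1.06 (SE), adjusted p = 0.00087) and Naaladl1 at 809.7, 126 and 356 CPM against 27.5 to 42 CPM (log2 fold change -3.74 ± 0.44 (SE), adjusted p = 0.00072). Sis, sucrase-isomaltase, was at 503, 7.87 and 126 CPM in small intestine and reached 17.1 CPM in a colon library, so its ranges overlapped. The Sis call was lost without any library but GFP-high 2 and small intestine 2 (adjusted p up to 0.14). With limma-voom, 8 of the 20 were called, against 18 with edgeR and 19 with DESeq2, and without small intestine replicate 1 the count was 11.

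Fat absorption and chylomicron genes were called lower for 15 of 21, against 4.68% of all genes tested, and higher for 1, with a median log2 fold change of -4.79. With the GFP-negative libraries alone, 6 were called lower. Mttp, which loads fat onto chylomicrons, was at 1574, 75.5 and 578 CPM against 1.8 to 4.98 CPM in colon (log2 fold change -8.01 ± 0.78 (SE), adjusted p = 0.00033), and even small intestine replicate 2 lay 15.2 times above the highest colon library. Fabp1, a fatty acid carrier, was at 12567, 323 and 1690.1 CPM against 9.02 to 54.2 CPM (log2 fold change -7.73 ± 1.07 (SE), adjusted p = 0.0018), and Apoa1, an apolipoprotein, at 14809, 117 and 3732 CPM against 1.41 to 85.8 CPM (log2 fold change -8.20 ± 1.54 (SE), adjusted p = 0.0083). The Apoa1 call was lost with GFP-negative libraries alone and without the colon replicate 2 pair (adjusted p up to 0.11). The exception was Scarb1, a lipoprotein receptor, higher in colon at 32.5 to 62.2 CPM against 10 to 26.1 CPM (log2 fold change 1.49 ± 0.35 (SE), adjusted p = 0.024, up to 0.092 without small intestine 1 or 2). Plin2, which coats lipid droplets, and Fabp2 overlapped.

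Sugar, peptide and amino acid transporters were called lower for 15 of 22 and higher for 2, against 4.68% and 6.26% of all genes tested. Their median log2 fold change was -3.85. Slc7a8 was at 146, 47 and 82.3 CPM against 2.12 to 7.42 CPM (log2 fold change -4.63 ± 0.46 (SE), adjusted p = 0.00036), and Slc5a1, the glucose carrier, was called with overlapping ranges, 999.8, 163 and 582 CPM against 69.7 to 168 CPM (log2 fold change -2.24 ± 0.45 (SE), adjusted p = 0.012). The 2 higher members were Slc6a14, an amino acid carrier, at 6.35, 159 and 101 CPM in GFP-high and at 200.2, 30.1 and 293 CPM in GFP-negative against 0.33, 0.253 and 0.124 CPM (log2 fold change 9.14 ± 1.43 (SE), adjusted p = 0.0034, with limma-voom 0.12), and Slc5a8, a carrier of short-chain fatty acids, at 19.7 to 169 CPM against 1.31 to 12.8 CPM (log2 fold change 3.76 ± 0.90 (SE), adjusted p = 0.026). The Slc5a8 call was lost without any of the small intestine libraries (adjusted p up to 0.096) and that of Slc5a1 without small intestine 1 (0.064). The lower count fell to 3 without the GFP-high libraries and to 6 without the GFP-negative libraries. Of 15 genes of vitamin, calcium and iron uptake, 6 were called lower, against 4.68% of all genes tested. Among them was Rdh7, a retinol dehydrogenase, at 232, 15.5 and 56 CPM against at most 0.267 CPM (log2 fold change -9.49 ± 1.05 (SE), adjusted p = 0.00056). Of 9 bile acid genes, 3 were lower, against 4.68% of all genes tested: the export pump Abcc2 and the corepressor Nr0b2 were separate, and Fabp6, the ileal bile acid carrier, stood at 439, 9.74 and 0.838 CPM in small intestine, near the colon range in replicates 2 and 3. The Fabp6 call was lost without any single library but small intestine 2 or 3 (adjusted p = 0.96 without small intestine 1), and that of Nr0b2 without any but GFP-high 3 and GFP-negative 3 (adjusted p up to 0.086). The bile acid count was 1 without GFP-high 1 or 2, GFP-negative 1 or 2, or small intestine 1.

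**Figure D4:**
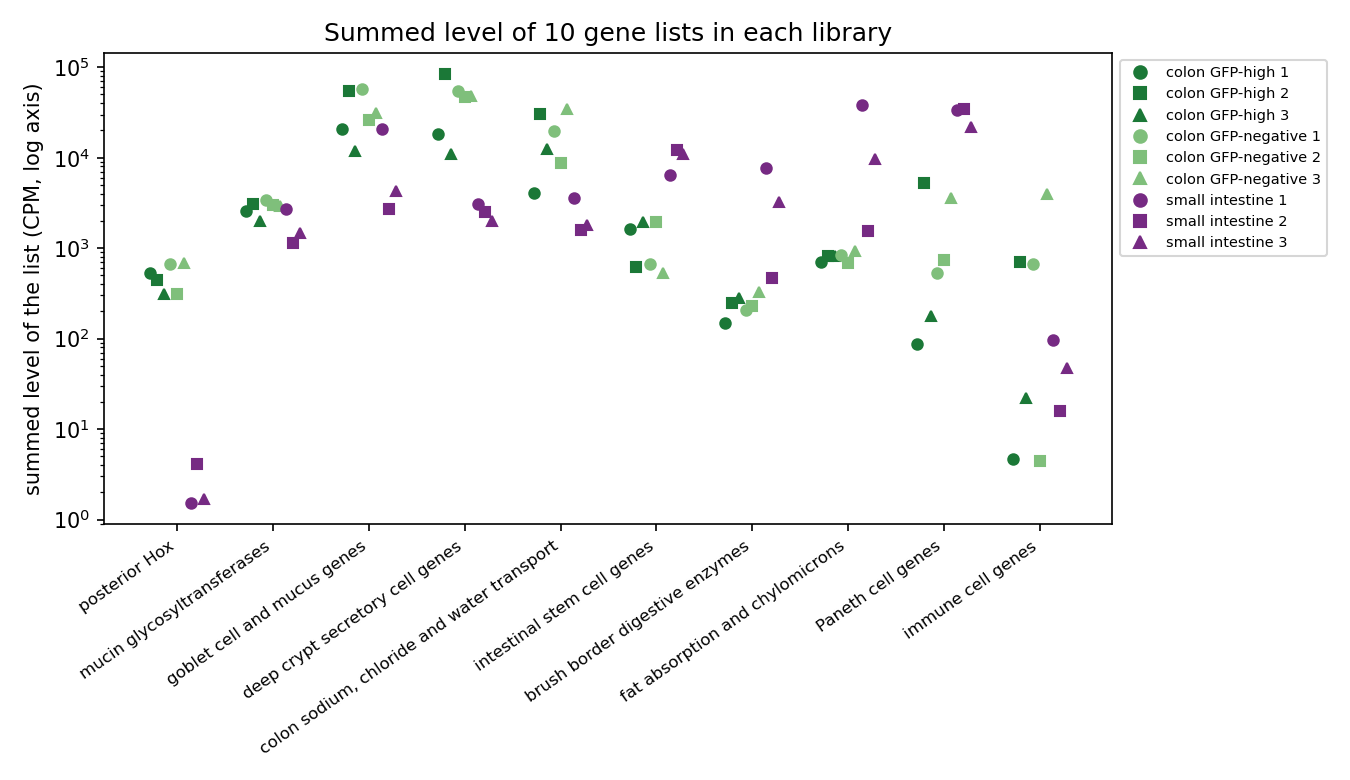
Summed level of 10 gene lists in each library (vertical, CPM, log axis), with colour for the group and symbol for the replicate. The mucin glycosyltransferase, goblet cell and leukocyte sums overlap between the tissues and the other sums do not. Small intestine replicate 2 lies nearest to colon for the brush border and fat absorption sums, and leukocyte genes are highest in the library labelled colon GFP-negative 3, at 3921 CPM.

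Epithelial defence genes went both ways, with 6 of 29 called higher and 5 lower, against 6.26% and 4.68% of all genes tested. DESeq2 called 14 higher and 6 lower. Besides Lpo, Mptx1, Reg4 and Retnlb, the higher members were the bacterial sensors Tlr4 at 1.78 to 6.27 CPM against 0.0155 to 0.0585 CPM (log2 fold change 6.91 ± 0.70 (SE), adjusted p = 0.00041) and Tlr1 at 21.4 to 64.8 CPM against 5.84 to 6.17 CPM (log2 fold change 2.61 ± 0.41 (SE), adjusted p = 0.0035). The lower members were the Reg lectins Reg3g, Reg3b, Reg3a and Reg1 and the nitric oxide synthase Nos2. Reg3g, which binds Gram-positive bacteria, was at 4908, 1272 and 444 CPM in small intestine and 44.9 to 257 CPM in colon (log2 fold change -4.06 ± 0.74 (SE), adjusted p = 0.0072). Pigr, the carrier of secreted antibodies, and Lypd8 overlapped. Without GFP-high 1, 10 of the list were called higher, and without small intestine 1, 3 were called lower. The calls of Reg3b and Nos2 were among those lost without small intestine 1 (adjusted p = 0.17 and 0.061).

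Xenobiotic and steroid enzymes also divided, 6 of 39 higher and 10 lower, against 6.26% and 4.68% of all genes tested. Their median log2 fold change was -1.0. Sult1a1, a phenol sulfotransferase, was at 775, 1629 and 1305 CPM in GFP-high and at 1338, 1421 and 1126 CPM in GFP-negative against 3.31, 5.53 and 4.15 CPM (log2 fold change 8.19 ± 0.42 (SE), adjusted p = 7.5e-06), and Sult1c2, another sulfotransferase, at 135 to 231 CPM against 4.71 to 7.77 CPM (log2 fold change 4.63 ± 0.31 (SE), adjusted p = 2.8e-05). Adh6a, an alcohol dehydrogenase, was at 1597, 49.9 and 311 CPM in small intestine against 0.93 to 2.24 CPM (log2 fold change -8.60 ± 0.90 (SE), adjusted p = 0.00045). With limma-voom, 1 of the lower genes was called. The lower count was 4 to 6 without GFP-high 2 or 3, GFP-negative 1 or 2, or small intestine 1 or 3, and the higher count 3 without small intestine 2 and 2 without small intestine 3. Of 20 genes of fatty acid oxidation and ketogenesis, 2 were called higher and 2 lower, near the shares over all genes tested (6.26% and 4.68%), and DESeq2 called 3 higher and 7 lower. Cpt2, a mitochondrial carnitine transferase, was among the lower (log2 fold change -1.18 ± 0.20 (SE), adjusted p = 0.0056).

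Of 9 tested receptors of microbial metabolites and of the neuropeptide Y system, 3 were higher in colon, against 6.26% of all genes tested, and all 3 were separate. Ffar2, a receptor for short-chain fatty acids, was at 131, 135 and 119.7 CPM in GFP-high and at 101, 119 and 87.8 CPM in GFP-negative against 10.9, 6.84 and 5.48 CPM (log2 fold change 3.90 ± 0.29 (SE), adjusted p = 6.8e-05). Ffar4, a receptor for long-chain fatty acids, was at 68.2 to 122 CPM against 8.01 to 18.8 CPM (log2 fold change 2.61 ± 0.33 (SE), adjusted p = 0.0011), and Npy1r was the other member. Among 25 hormone and enteroendocrine genes, 1 was called higher, under the share over all genes tested (6.26%), and 3 lower (4.68% over all genes). DESeq2 called 7 higher and 3 lower, and without GFP-high 1 edgeR called 2 higher. Gip, the incretin of proximal small intestine, was at 414, 9.41 and 14.9 CPM against at most 0.559 CPM (log2 fold change -10.22 ± 1.73 (SE), adjusted p = 0.0049), and Ghrl, ghrelin, was lower too (log2 fold change -5.77 ± 0.91 (SE), adjusted p = 0.0036). The Gip call was lost with limma-voom and with the GFP-high libraries alone (adjusted p up to 0.11). Insl5, a hormone of the distal gut, was called higher with overlapping ranges, 0 to 52.6 CPM in colon and at most 0.0195 CPM in small intestine (adjusted p = 0.032), and the call was lost without GFP-negative 1 or any small intestine library (adjusted p up to 0.13). It was also lost with limma-voom and without the colon replicate 2 pair (adjusted p up to 0.64). Chga, a granin of hormone-secreting cells, ranged over 18.6 to 4295 CPM in colon, and the list summed to 272 to 13272 CPM there. Of 16 tuft cell genes, 2 were called higher, against 6.26% of all genes tested, and 0 lower: Hpgds, a prostaglandin synthase, at 19.8 to 74.4 CPM against 5.25 to 11.2 CPM (log2 fold change 2.35 ± 0.55 (SE), adjusted p = 0.023), and Gnat3, the taste G protein, at 9.3 to 87.4 CPM against 1.33 to 3.17 CPM (log2 fold change 4.04 ± 0.87 (SE), adjusted p = 0.016). Both calls were lost without small intestine 1 or 3, and that of Hpgds without small intestine 2 (adjusted p up to 0.089). Dclk1 and Trpm5, which define the cell type, overlapped.

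Several lists carried few or no calls. For 8 lists with 65 tested members (mitosis, leukocyte, MHC class II, stromal, endothelial, neural, red cell and sex-linked genes) edgeR called 0 members, against 10.9% of all genes tested in either direction. An unadjusted edgeR p under 0.05 was found for 10 of the 65. For the same members limma-voom called 0 and DESeq2 5 higher and 2 lower. The median log2 fold change was 4.28 for leukocyte genes (18 of 19 above 0) and -0.73 for mitosis genes (2 of 19 above 0). It was -1.16 for MHC class II genes (0 of 7 above 0) and 2.02 for stromal genes. For red cell, sex-linked, neural and endothelial genes it was 0.71, 0.32, 0.055 and -0.30, against 0.03 over all genes tested. Without colon GFP-negative 3, edgeR called 4 of the 7 MHC class II genes lower, against 4.68% of all genes tested with every library included. The summed level of the MHC class II genes was 8522 CPM in GFP-negative 3, 45.6 to 945 CPM in the other colon libraries and 1708 to 4479 CPM in small intestine. Without GFP-high 3, 1 endothelial gene was called lower. Of 7 mast cell genes, 1 was called higher, against 6.26% of all genes tested. It was Cma1, a chymase, at 3.55 to 37.7 CPM in colon against 0 to 0.0155 CPM (adjusted p = 0.00066, with limma-voom 0.080). Mcpt1 reached 185 CPM in the library labelled GFP-negative 3 and had no count in GFP-high 1. The mast cell list had a median log2 fold change of 4.36, with 7 of 7 above 0. It summed to 4.43 to 306 CPM in colon and 0.155 to 5.25 CPM in small intestine, and the part of mast cells in the Cma1 level was not tested. Of 14 genes in the immediate early list, 1 was called higher, near the share over all genes tested (6.26%). It was Nr4a1, which is induced by cell handling, at 7.99 to 31 CPM against 0.478 to 1 CPM (log2 fold change 4.49 ± 0.61 (SE), adjusted p = 0.0016), whereas Fos overlapped. The pancreatic enzymes Cela2a and Prss2 were called lower, with 461 and 448 CPM in small intestine replicate 1 and no more than 0.714 CPM in the other libraries. Their calls were lost without that library (adjusted p = 0.63 and 0.80), without GFP-high 2 or GFP-negative 1, and for Cela2a without GFP-negative 2. The stomach gene Pgc of that list was separate and called (log2 fold change -6.75 ± 1.01 (SE), adjusted p = 0.0028).

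Within colon, programme genes varied unequally across the 6 libraries. Among higher genes whose lowest colon level was at least 10 CPM (525 genes), 253 spanned no more than 2-fold and 9 spanned at least 10-fold. Car1, Mptx1 and Slc6a14 were lowest in the library labelled GFP-high 1, and Kit and Ffar2 were nearly level. Among called, separate genes with at least 10 CPM in every library of the higher tissue, the least variable were the kinase Nek6, the cathepsin Ctsz, Tmem41a and the glycogenin Gyg1, each within 1.2-fold in colon. Gyg1 was at 41.7 to 48.9 CPM in colon against 16.7 to 33.1 CPM in small intestine, and its call was lost without small intestine 1 or 3 (adjusted p up to 0.12). In the alternatives without a block, the call of Gyg1 was lost in 6 (adjusted p up to 0.14), that of Nek6 in 14 (0.21), that of Ctsz in 6 (0.17) and that of Tmem41a in 2 (0.077). Of the same genes, those with counts in every colon library that varied most were Slc1a3, Abcg8, Sfrp5 and Fam20a, all lower in colon and under 4 CPM there. The call of Slc1a3 was lost in 13 of these alternatives (adjusted p up to 0.17) and that of Fam20a in 7 (0.13). The colon library that set the boundary was most often GFP-high replicate 3, the lowest for 389 of the 1226 higher genes (31.7%). Small intestine replicate 2 was the lowest of its tissue for 421 of the 841 lower genes (50.1%). At the edge of the rule, Arl16 and Unc50 were just inside on the colon side (lowest colon 23.4 and 114 CPM, level with the highest small intestine library to 3 digits) and F2rl1 (7.53 CPM) and Ogfod2 (59.0 CPM) just outside, again level to 3 digits. On the other side Ptges2 (highest colon 122.4 CPM, lowest small intestine 122.5 CPM) and Uap1l1 (35.57 and 35.60 CPM) were just inside, and Cog5 (11.964 and 11.959 CPM) and Dnajc2 (120.1 and 120.0 CPM) just outside.

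Programme genes lay side by side at several places. Along the annotation order of the 18122 tested genes with coordinates (87.9% of genes tested) there were 34 runs of at least 3 called, separate neighbours in a single direction, 24 higher and 10 lower. Tested genes without coordinates were passed over. The longest was the alpha-defensin cluster, 28 genes lower in colon from Defa21 to Defa24 (GRCm38, chromosome 8, 21025545 to 21735471). Hoxa5 to Evx1 formed a run of 12 higher genes (chromosome 6, 52201754 to 52318378), which holds Hoxa5 to Hoxa13, the noncoding Hottip and the homeobox gene Evx1. The Hoxb5 to Hoxb9 stretch gave 7 (chromosome 11, 96251105 to 96306910) and Hoxd13 to Hoxd8 gave 6 (chromosome 2, 74668310 to 74716130). In another run, 4 kallikreins from Klk1b3 to Klk1 stood together (chromosome 7, 44198191 to 44229618). Reg3b, Reg3a, Reg1 and Reg3g formed a run of 4 lower genes (chromosome 6, 78370657 to 78468872). Neighbours and antisense partners may share reads where the counting ignored strand.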

How the data were processed

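RNA-seq reads were aligned with STAR to mm10 and counted per gene with featureCounts of Subread, and edgeR was used, per the submitters' processing notes, which give no versions. The deposited table holds a raw read count per gene and library, per the file headers, for 78239 genes. The sources used here do not give the strand setting, the annotation release or how multimapping reads were counted. The deposited table's 5 other per-sample columns were not used.

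Genes were kept by filterByExpr with tissue as the group (20610 kept, 57629 not tested), counts were scaled by TMM, and colon was compared with small intestine by edgeR's quasi-likelihood test (edgeR 4.0.16, R 4.3.3), fitted over the 6 and 3 libraries with no covariate, with Benjamini-Hochberg adjustment over all genes tested and a threshold of 0.05. Levels are CPM computed with TMM-scaled library sizes, and a level of 0 was set to 3 counts in any fold. Total counts were 86621513 to 106673547 per library, and the common biological coefficient of variation was 0.730. On simulated data with the real means, library sizes and spread, 61% of genes changed 4-fold and 96% of genes changed 16-fold were called, 100 genes of each, and 9 unchanged genes were called. The changed genes were drawn only from those above a minimum mean level, so these rates do not cover genes at low levels. Alternatives included DESeq2 1.42.0, limma-voom (limma 3.58.1), other scalings and each library left out.

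The members and gene lists were chosen with earlier results of these data known. Named genes were the markers and study genes, the 10 widest gaps in each direction with a lowest level of at least 1 CPM, in each list up to 5 called, separate members and 2 overlapping ones, taken by highest mean level, the 4 least and 4 most variable called, separate genes with at least 10 CPM in every library of the higher tissue (and counts in every colon library), and the 2 genes either side of the boundary in each direction, with predicted genes passed over. Other list members named here were chosen after their values were seen. Coordinates come from GENCODE M21 (GRCm38), which held 65.8% of gene IDs, and promoter windows from RefSeq (GRCm38.p6). Some genes are not reported here.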

Additional observations from a re-analysis of the deposited data

Results flagged for a closer look

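Among 42 genes checked over the 6 colon libraries, 3 had a library far from the others by the gap to the nearest library as a share of the whole range. Chance flags about 1 in 20 such groups of libraries. Olfm4 stood at 5.13 CPM in colon GFP-negative replicate 1 and at 2.20 to 2.93 CPM in the other colon libraries. Mttp stood at 4.98 CPM in GFP-high replicate 1 and at 1.80 to 2.91 CPM in the others. Gip stood at 0.559 CPM in GFP-high replicate 1 and at 0 to 0.108 CPM in the others. Each of these values lay below every small intestine library.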

How the results depend on the processing

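Against 2255 genes called with edgeR (1291 higher, 964 lower), DESeq2 called 4089 (2556 higher, 1533 lower) over the same table. The GFP-high libraries alone against small intestine gave 1093 (741 and 352), the GFP-negative libraries alone 969 (689 and 280), and all libraries but the colon replicate 2 pair 1145 (721 and 424), each with fewer libraries in the fit. With colon libraries of 1 name tag summed, 627 genes were called lower. Leaving out single libraries gave 1273 (without small intestine 3) to 2410 (without GFP-negative 3) calls, 797 to 1461 higher and 476 to 949 lower. Of the 1952 genes separate and higher in colon, 818 had ranges at least 2-fold apart. With GFP-negative libraries alone, 2978 of the genes tested were separate and higher in colon, whatever the size of the gap. Of the 1756 separate and lower, 372 were at least 2-fold apart. The count of separate, lower genes was 1121 with total counts in place of TMM, 2722 with GFP-high and 2742 with GFP-negative libraries alone, where fewer colon libraries had to lie below small intestine. With single libraries left out it was 2015 to 2803 for the higher and 1832 to 3284 for the lower genes.

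Of the 1226 higher and 841 lower genes both called and separate, 500 (40.8%) and 183 (21.8%) were called in every alternative without a block, 259 (21.1%) and 86 (10.2%) in every alternative with the blocks included, 644 (52.5%) and 342 (40.7%) with each single library left out, and 0 changed sign in any alternative. The count of sign changes is no support, because genes chosen for separate ranges could hardly change direction when libraries were left out or summed. Cela2a, which was called without being separate, had a log2 fold change of -9.72, with single libraries left out from -10.30 (without small intestine 2) to 1.38 (without small intestine 1). Among the 133 called, named genes followed across the alternatives, none but Cela2a changed direction. List members named beyond these were not followed for direction. Muc2 missed the threshold with either fraction alone (adjusted p up to 0.055). The median log2 fold change of all genes, 0.03, was 0.13 without small intestine 1 and 0.18 with no filter on low counts.

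The correlation of deviations between same-numbered colon fractions was -0.0864, -0.604 and -0.245 for replicates 1 to 3. The deviations were taken from the means of the labelled groups, and Lgr5 ran against the labels in the replicate 2 pair. These correlations therefore cannot decide whether the numbers pair the libraries. With the replicate number as a replicate block, 1456 genes were called (926 higher, 530 lower). With the name tag as the block, 425 were called (304 higher, 121 lower), and Cela2a had a log2 fold change of 2.21. Of the 133 named genes, 54 kept their call under the name tag and 108 under the replicate number. Npy1r had an adjusted p of 0.067 under the name tag and 0.012 under the number. Same-tag libraries of different groups correlated from -0.604 to 0.275.

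The common biological coefficient of variation between libraries was 0.730, and 3 counts are at most 0.0412 CPM. The effect of depth on the calls was not tested. A gene that was not called is not shown to be equal in both tissues.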
